A study of Homo sapiens with 9 samples.

Results

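The genes described here are 34 genes of cholesterol and fatty acid synthesis, out of 21743 genes that had a named probe on the array. The members are a list of genes given by name, chosen with earlier results of these data known. Each was measured by the probe whose RefSeq transcript belongs to it. Where a gene had several, the probe with the highest mean over the 9 arrays was taken. All 34 had such a probe, and in all 34 it was detected on each of the 9 arrays, meaning that at least 0.5 of its spots passed the scanner software's marks for a signal over the background. Every member therefore passed the filter on dim probes in every comparison. By role they fall into 7 enzymes of the mevalonate steps, 11 of the steps from squalene to cholesterol, 4 sterol regulators and carriers, 9 genes of fatty acid and lipid synthesis and 3 targets of the liver X receptors.

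Cells build cholesterol from acetyl-CoA through mevalonate, squalene and lanosterol, and build fatty acids from the same starting material. Both routes are switched on by the sterol regulatory element-binding proteins, which SREBF1 and SREBF2 encode and which are held in the endoplasmic reticulum by INSIG proteins when sterols are plentiful. The liver X receptors answer to oxidised sterols in the opposite sense, and among their targets are pumps that carry cholesterol out of the cell.

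Total RNA of 3 groups was measured, with 3 single-colour Agilent arrays a group. All come from A549, an established line of human lung adenocarcinoma, which is itself the group parental A549. The cells called OSK-A549-Colony, and likewise those called OSK-A549-SN, descend from A549 that received OCT3/4, SOX2 and KLF4 by pMXs retroviruses, and the RNA came from 3 separate transductions. Colonies were picked and passaged, and short trypsin treatment then released the spindle-shaped cells around them, which are OSK-A549-SN, from the colonies that stayed on the dish, which are OSK-A549-Colony. The titles give numbers of P98, P98 and P99 for parental A549 and P106, P107 and P106 for replicates 1 to 3 of both transduced groups. If these are passage numbers, passage and transduction cannot be told apart, and no array here is of cells with a control virus. In these bulk samples, fewer cells with a transcript and less of it per cell cannot be told apart either.

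The epithelial label of the line was checked against its markers. KRT7, KRT8, KRT18, KRT19, CDH1 and EPCAM were detected on all 9 arrays. Of 8 markers of blood, vessel and stromal cells, PECAM1 was detected on none of the arrays, CD3E on 2 and COL1A1 on 3, while PTPRC, CD14, CDH5, VWF and ACTA2 were detected on all 9. By limma 0 of the 7 that could be tested passed the test in any comparison. At an unadjusted p under 0.05 were 3 in OSK-A549-Colony against parental A549, 0 for OSK-A549-SN against the parental line and 3 between the transduced groups. Of all probes 30.1%, 21.6% and 19.5% were under it in these comparisons. In the first of these PTPRC, VWF and ACTA2 lay lower on all arrays, as did 20.7% of all probes, and the median of the 7 was -0.57. CDH1, the epithelial cadherin, fell 1.99-fold in OSK-A549-Colony (adjusted p = 0.0319) and was the 1 epithelial marker of 6 past the test there. That call ended when parental A549 replicate 2 or any 1 of the OSK-A549-Colony arrays was left out (adjusted p from 0.0824 to 0.127). The others went both ways: KRT19 lay above all parental arrays, 2.26-fold higher without passing the test (adjusted p = 0.0625), KRT7 had a log2 difference of 0.15, and KRT8, KRT18 and EPCAM had values below 0. In OSK-A549-SN 5 of the 6 had values below 0 and 1 above, and by limma 0 passed the test. CDH1 was 1.78-fold lower there, below all parental arrays (adjusted p = 0.0860), and KRT19 had -0.05. Of 5 mesenchymal markers, VIM, CDH2 and ZEB1 lay above all parental arrays in both transduced groups, while FN1 lay below them all in OSK-A549-SN, 2.52-fold lower (adjusted p = 0.0701). By limma 0 of the 5 passed the test, and those at an unadjusted p under 0.05 were VIM, CDH2 and ZEB1 for OSK-A549-Colony and VIM, CDH2 and FN1 for OSK-A549-SN. The part of these markers in the values of the members was not tested.

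Levels are given as log2 of the signal minus the array's 75th percentile, so that 1 unit is a factor of 2, and a level can be compared between arrays for 1 gene but not between genes. A gene is said to have risen or fallen where limma, fitted to the 6 arrays of a comparison over all probes tested, gave a Benjamini-Hochberg adjusted p under 0.05. The first comparison asks what differs between the colony cells and the line they came from. Of the 34 members, 8 fell and 0 rose in OSK-A549-Colony against parental A549. Over all 30869 probes tested, 4.72% fell and 4.29% rose, and among the 23762 probes detected on all 9 arrays, as the members were, 5.17% fell. At a stricter threshold, which adds a fold change over 2, 1 member fell and 0 rose, against 1.99% and 1.71% of all probes. Without parental A549 replicate 1 or replicate 3 that count was 2, beside 4.49% and 3.59% of all probes in both directions, and without parental A549 replicate 2 or any 1 of the OSK-A549-Colony replicates it was 0.

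The shift was wider than the calls. The value was below 0 for 30 of 34 members, 88.2% of them, against 52.8% of all probes. As the members were chosen with earlier results of these data known, their shares and medians are a description and not a test. The median log2 difference of the members was -0.46, against -0.03 over all probes tested. All 3 OSK-A549-Colony arrays lay below all 3 parental A549 arrays in 22 members and above them in 1, and the shares of all probes were 20.7% and 20.9%. The count of 1 was 2 without parental A549 replicate 3 or OSK-A549-Colony replicate 1 or 3, where 30.7%, 24.6% and 23.4% of all probes lay above. The members that fell came from each role group: 2 of 7 mevalonate enzymes, 3 of 11 enzymes from squalene to cholesterol, 1 of 4 regulators, 1 of 9 fatty acid and lipid genes and 1 of 3 liver X receptor targets.

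**Figure D1:**
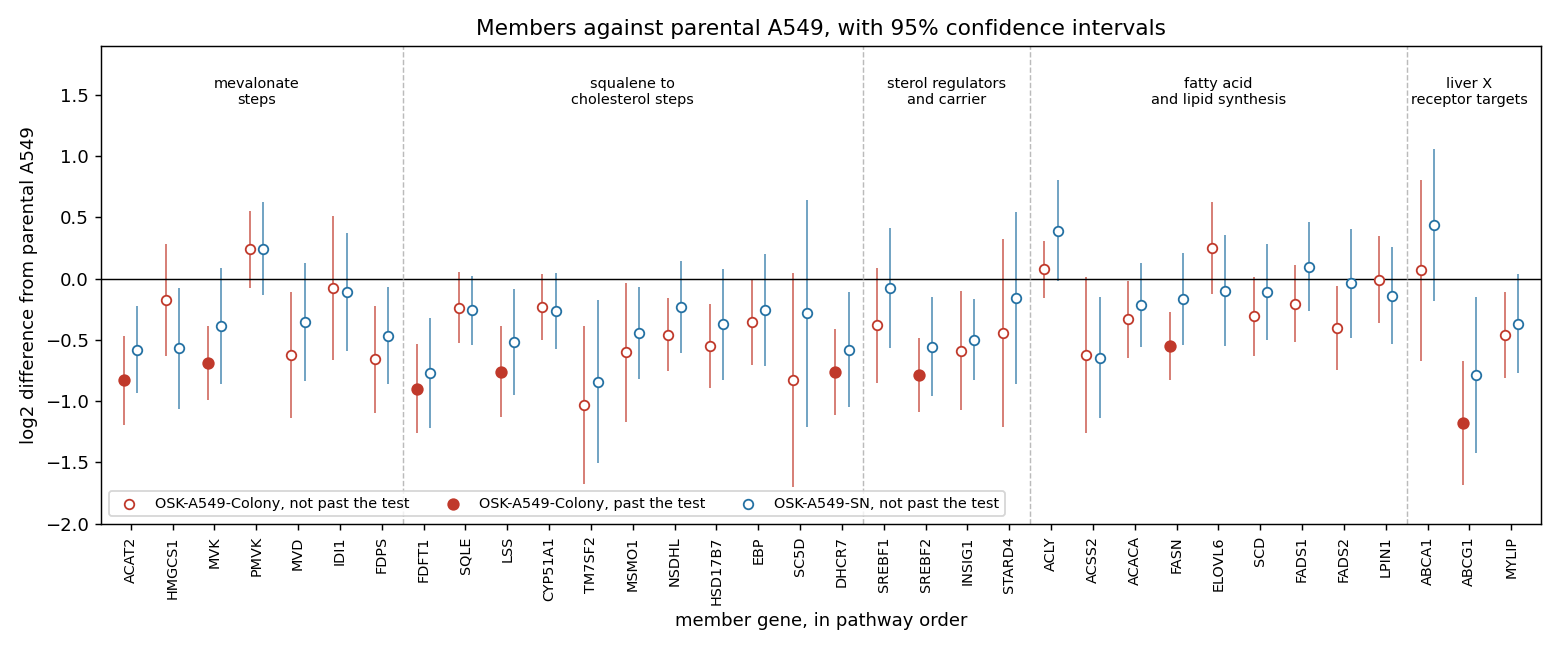
Log2 difference from parental A549 (vertical axis) of each of the 34 members, in pathway order, in each transduced group, with 95% confidence intervals of the limma fit. Filled points passed the test, which 8 members did in OSK-A549-Colony, and 30 of the 34 points lie below 0 in each transduced group.

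These calls rested on the full set of arrays and on a fit without a term for the replicate number. With that term 0 members passed the test, as did 0 of 30869 probes. By limma 15 members, 44.1% of them, then had an unadjusted p under 0.05, against 23.6% of all probes. No label ties same-numbered arrays of these groups, and their deviations from the group means correlated at -0.007, -0.053 and -0.016 across probes. The term also leaves fewer values to estimate the spread from, so a loss of power and an effect of the replicate number cannot be told apart here. With parental A549 replicate 2 left out, 0 of the 34 members passed the test, and the same count of 0 was found without OSK-A549-Colony replicate 1, replicate 2 or replicate 3. In those fits limma gave 14, 19, 12 and 13 members an unadjusted p under 0.05, which is 41.2%, 55.9%, 35.3% and 38.2% of them, against 25.6%, 23.8%, 20.8% and 20.9% of all probes, and the calls over all probes went from 2783 to 1, 141, 0 and 85. With all arrays 18 members and 30.1% of probes were under it. Without parental A549 replicate 1, 6 members passed, of which 4 were among the 8, beside 8.07% of all probes in place of 9.02%. Without replicate 3, 9 passed, including all 8, while the calls over all probes rose to 13.8%. With no filter on dim probes, which raises the number tested to 50599, limma called 0 members and 1.34% of all probes, and 17 members, 50% of them, had an unadjusted p under 0.05 against 18.5% of all probes.

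In the mevalonate steps, which turn acetyl-CoA into the isoprenoid units of cholesterol, ACAT2 and MVK fell. ACAT2, the cytosolic thiolase that joins 2 acetyl-CoA, read 4.77, 4.72 and 4.81 on the 3 parental A549 arrays, 4.20, 3.84 and 3.75 on the OSK-A549-Colony arrays and 4.18, 4.37 and 4.00 on the OSK-A549-SN arrays. All 6 transduced arrays lay below the parental ones, and OSK-A549-Colony replicate 1 was the highest of its group. The level was 1.78-fold lower in OSK-A549-Colony (log2 difference -0.83, SE 0.15, adjusted p = 0.0343). In OSK-A549-SN it was 1.49-fold lower, which did not pass the test (adjusted p = 0.102).

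MVK read 4.93, 4.86 and 5.15 on the 3 parental A549 arrays, 4.34, 4.35 and 4.19 on the OSK-A549-Colony arrays and 4.55, 4.91 and 4.33 on the OSK-A549-SN arrays. MVK is mevalonate kinase, which adds the first phosphate to mevalonate. The OSK-A549-Colony arrays lay below all parental ones, whereas OSK-A549-SN replicate 2 lay among the parental arrays. The level was 1.61-fold lower in OSK-A549-Colony (log2 difference -0.69, SE 0.12, adjusted p = 0.0341).

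HMGCS1 read 2.71, 2.41 and 2.04 on the 3 parental A549 arrays, 2.23, 2.26 and 2.16 on the OSK-A549-Colony arrays and 1.88, 1.89 and 1.69 on the OSK-A549-SN arrays. HMGCS1, the synthase that makes HMG-CoA, was lowest in OSK-A549-SN, and the OSK-A549-Colony arrays lay within the parental range. Against parental A549 its log2 difference was -0.17 for OSK-A549-Colony and -0.57 for OSK-A549-SN, and neither passed the test. None of the other 4 enzymes passed it. FDPS, which makes farnesyl diphosphate, had -0.66 for OSK-A549-Colony and -0.47 for OSK-A549-SN, and MVD, the decarboxylase before it, had -0.62 and -0.36. IDI1, the isomerase between them, had -0.08 and -0.11. PMVK, the kinase that follows MVK, had a value above 0 in both groups, 0.24 and 0.25.

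From squalene to cholesterol all 11 enzymes had values below 0 against parental A549, in each transduced group. FDFT1, squalene synthase, the first enzyme committed to sterols, read 4.53, 4.59 and 4.80 in parental A549, 3.97, 3.65 and 3.60 in OSK-A549-Colony and 3.91, 4.12 and 3.58 in OSK-A549-SN. All 6 transduced arrays lay below all parental arrays. The level was 1.86-fold lower in OSK-A549-Colony (log2 difference -0.90, SE 0.15, adjusted p = 0.0309) and 1.71-fold lower in OSK-A549-SN, where it did not pass the test but had the smallest adjusted p of the members (adjusted p = 0.0940).

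LSS read 2.41, 2.34 and 2.69 on the 3 parental A549 arrays, 1.89, 1.72 and 1.56 on the OSK-A549-Colony arrays and 1.94, 2.20 and 1.76 on the OSK-A549-SN arrays. LSS closes the rings of squalene epoxide to lanosterol, and its transduced arrays all lay below the parental ones. It fell 1.69-fold in OSK-A549-Colony (log2 difference -0.76, SE 0.15, adjusted p = 0.0405). A second probe of LSS was not detected on OSK-A549-Colony replicates 2 and 3, and its difference is not given.

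DHCR7 read 5.92, 6.09 and 6.37 on the 3 parental A549 arrays, 5.39, 5.38 and 5.32 on the OSK-A549-Colony arrays and 5.47, 5.82 and 5.35 on the OSK-A549-SN arrays. DHCR7 reduces 7-dehydrocholesterol to cholesterol at the end of the route. The 3 OSK-A549-Colony arrays lay close together and below all parental ones, and OSK-A549-SN replicate 3 lay among them. DHCR7 fell 1.69-fold in OSK-A549-Colony (log2 difference -0.76, SE 0.14, adjusted p = 0.0367).

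TM7SF2 read 0.63, 1.12 and 1.58 on the 3 parental A549 arrays, 0.30, -0.03 and -0.04 on the OSK-A549-Colony arrays and 0.23, 0.51 and 0.07 on the OSK-A549-SN arrays. TM7SF2, a sterol reductase acting after lanosterol, spread widely among the parental arrays, from 0.63 to 1.58, and all transduced arrays lay below them. Its log2 difference of -1.04 in OSK-A549-Colony was the second largest of the members and did not pass the test (SE 0.26, adjusted p = 0.0651). The other 7 enzymes of these steps, SQLE, CYP51A1, MSMO1, NSDHL, HSD17B7, EBP and SC5D, had log2 differences from -0.83 for SC5D to -0.23 for CYP51A1 in OSK-A549-Colony, and none passed the test. SQLE, the epoxidase that follows FDFT1, had -0.24. Of HSD17B7, a sterol ketone reductase, 3 probes were detected on all 9 arrays, and their differences were -0.55, -0.53 and -0.60. SC5D had the widest spread of any member among the parental arrays, with an SD of 0.61.

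**Figure D2:**
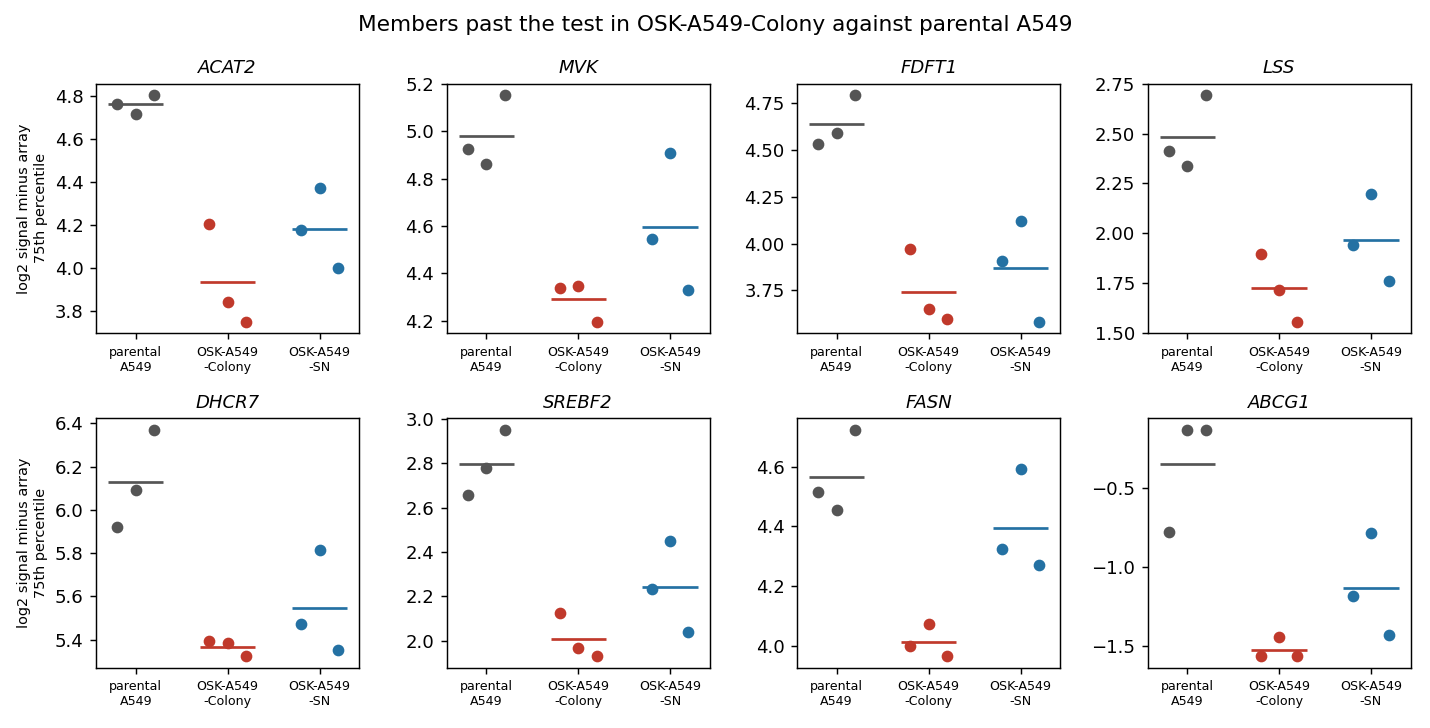
Level of the 8 members that fell in the first comparison, on each array (log2 signal minus the array's 75th percentile, vertical axis, drawn on a scale of its own for each gene). Points are the 3 replicates in order and lines are group means, and in each gene the 3 OSK-A549-Colony points lie below the 3 parental A549 points.

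SREBF2, which encodes the activator of the cholesterol genes, had the smallest adjusted p of the members. It read 2.66, 2.78 and 2.95 in parental A549, 2.12, 1.97 and 1.93 in OSK-A549-Colony and 2.23, 2.45 and 2.04 in OSK-A549-SN. No transduced array reached the lowest parental one. The level was 1.73-fold lower in OSK-A549-Colony (log2 difference -0.79, SE 0.12, adjusted p = 0.0286), and 1.47-fold lower in OSK-A549-SN without passing the test (adjusted p = 0.136).

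SREBF1 read 6.24, 5.84 and 6.48 on the 3 parental A549 arrays, 5.66, 5.89 and 5.85 on the OSK-A549-Colony arrays and 5.99, 6.26 and 6.07 on the OSK-A549-SN arrays. SREBF1 drives the fatty acid genes above all, and its OSK-A549-Colony arrays overlapped the parental ones through parental replicate 2. The log2 difference was -0.38 in OSK-A549-Colony (95% confidence interval -0.85 to 0.08, adjusted p = 0.236) and -0.08 in OSK-A549-SN (adjusted p = 0.835). A second probe of SREBF1 had -0.11 and 0.19.

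INSIG1 read 2.41, 2.31 and 2.25 on the 3 parental A549 arrays, 2.11, 1.68 and 1.41 on the OSK-A549-Colony arrays and 1.82, 1.97 and 1.68 on the OSK-A549-SN arrays. INSIG1 retains the SREBP proteins in the endoplasmic reticulum and is itself a target of them. All transduced arrays lay below the parental ones, with OSK-A549-Colony spread from 1.41 to 2.11. Its log2 difference of -0.59 in OSK-A549-Colony did not pass the test (adjusted p = 0.113), nor did -0.50 in OSK-A549-SN (adjusted p = 0.119). STARD4, a carrier of cholesterol between membranes, had -0.44 and -0.16.

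As values of the route lay below 0 together, the members' promoters were searched, on both strands, for letters tied to its regulators. RefSeq promoters (GRCh38.p14), 250 bases before to 50 after a gene's start, were matched by symbol for 29 of the 34 members, and ACAT2, FASN, ABCG1, SQLE and FDFT1 had no entry. The sterol regulatory element letters TCACNCCAC were in 1 of the 29 members, SREBF2, and in 1.39% of the 27305 genes with a promoter. CACCCCAC, which can overlap them, was in 2 members, SREBF2 and ABCA1, and in 3.39% of genes. CCAAT, the core letters bound by NF-Y, was in 22 of the 29 members, 75.9%, against 39.7% of genes. The E-box CACGTG was in 4 members, 13.8%, against 8.77%. Over all 35116 promoters the shares with these 4 patterns were 1.13%, 2.79%, 34.6% and 7.26%. A match says that the letters are present and not that a factor binds there. Only exact letters within these stretches were searched, so the lack of a match does not show that a site is absent.

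The 250 bases before the start of SREBF2 are at chr22:41832855-41833104 on the plus strand. They are shown because, of the members that fell and had a promoter entry, only SREBF2 had a sterol element match. ACAT2, FASN, ABCG1 and FDFT1 also fell and could not be searched. The capitals of SREBF2 mark TCACCCCAC, where both sterol patterns overlap, and CCAAT on the opposite strand. MVK, LSS and DHCR7, at chr12:109573544-109573793 on the plus strand, chr21:46228775-46229024 on the minus strand and chr11:71448394-71448643 on the minus strand, were chosen after their values were seen, as the other members that fell and had a match. Their capitals mark CCAAT or its reverse complement, 5 times in MVK, at 1 place in LSS and at 2 in DHCR7, of which the 1 of 2 promoter entries with a match is given.
SREBF2: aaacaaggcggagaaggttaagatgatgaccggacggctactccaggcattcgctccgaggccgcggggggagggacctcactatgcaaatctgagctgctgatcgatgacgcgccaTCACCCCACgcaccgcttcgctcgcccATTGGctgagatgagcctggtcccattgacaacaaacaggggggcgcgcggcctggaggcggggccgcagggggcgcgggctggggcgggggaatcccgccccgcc
MVK: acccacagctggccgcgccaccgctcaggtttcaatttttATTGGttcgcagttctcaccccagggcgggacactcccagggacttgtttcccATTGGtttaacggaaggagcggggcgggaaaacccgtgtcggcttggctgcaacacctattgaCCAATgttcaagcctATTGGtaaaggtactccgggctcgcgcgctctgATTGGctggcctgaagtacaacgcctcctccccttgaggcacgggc
LSS: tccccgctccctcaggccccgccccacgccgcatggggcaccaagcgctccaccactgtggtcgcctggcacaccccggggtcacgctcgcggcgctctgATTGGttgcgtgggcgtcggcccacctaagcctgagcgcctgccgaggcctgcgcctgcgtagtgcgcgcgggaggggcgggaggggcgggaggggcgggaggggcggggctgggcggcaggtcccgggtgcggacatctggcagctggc
DHCR7: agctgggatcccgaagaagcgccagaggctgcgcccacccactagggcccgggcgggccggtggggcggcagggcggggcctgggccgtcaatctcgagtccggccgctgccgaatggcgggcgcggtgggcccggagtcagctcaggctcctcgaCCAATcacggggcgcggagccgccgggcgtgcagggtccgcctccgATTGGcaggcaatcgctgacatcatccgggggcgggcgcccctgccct

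Of fatty acid and lipid synthesis, 1 of 9 members fell. FASN, the fatty acid synthase, read 4.51, 4.46 and 4.72 in parental A549, 4.00, 4.07 and 3.97 in OSK-A549-Colony and 4.32, 4.59 and 4.27 in OSK-A549-SN. The OSK-A549-Colony arrays lay below all others, and OSK-A549-SN overlapped parental A549. FASN fell 1.47-fold in OSK-A549-Colony (log2 difference -0.55, SE 0.11, adjusted p = 0.0437), with -0.17 in OSK-A549-SN (adjusted p = 0.554).

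SCD read 3.24, 3.29 and 3.61 on the 3 parental A549 arrays, 3.09, 3.08 and 3.06 on the OSK-A549-Colony arrays and 3.28, 3.40 and 3.14 on the OSK-A549-SN arrays. SCD makes monounsaturated fatty acids, and its 3 OSK-A549-Colony arrays, which lay close together, were below all parental arrays. The log2 difference of -0.31 did not pass the test (adjusted p = 0.183). FADS2 read 6.22, 6.15 and 6.53 on the 3 parental A549 arrays, 5.91, 5.98 and 5.81 on the OSK-A549-Colony arrays and 6.20, 6.51 and 6.07 on the OSK-A549-SN arrays. FADS2, a desaturase of polyunsaturated fatty acids, had -0.40 for OSK-A549-Colony and -0.04 for OSK-A549-SN, and neither passed the test.

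ACSS2 read 1.32, 1.64 and 1.86 on the 3 parental A549 arrays, 1.47, 0.76 and 0.73 on the OSK-A549-Colony arrays and 0.87, 1.22 and 0.79 on the OSK-A549-SN arrays. ACSS2 makes acetyl-CoA from acetate, and OSK-A549-Colony replicate 1 lay among the parental arrays, while replicates 2 and 3 lay below all OSK-A549-SN arrays. Its log2 difference was -0.62 in OSK-A549-Colony (adjusted p = 0.174) and -0.65 in OSK-A549-SN (adjusted p = 0.150). Among the remaining 5, ACACA, which makes malonyl-CoA, had -0.33 in OSK-A549-Colony and -0.03 by a second probe, and the desaturase FADS1 had -0.20. LPIN1, a phosphatidate phosphatase, had -0.01. ACLY, which makes acetyl-CoA from citrate, had 0.07 for OSK-A549-Colony and 0.39 for OSK-A549-SN, where its arrays lay above all parental ones. ELOVL6, an elongase, had 0.25 and was the 1 member whose OSK-A549-Colony arrays all lay above parental A549.

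Of the 3 liver X receptor targets, 1 fell. ABCG1, a pump that hands cholesterol to lipoproteins, read -0.78, -0.13 and -0.13 in parental A549, -1.57, -1.45 and -1.56 in OSK-A549-Colony and -1.18, -0.78 and -1.43 in OSK-A549-SN. The OSK-A549-Colony arrays were the lowest 3 of the 9, and parental replicate 1 came close to OSK-A549-SN replicate 2. ABCG1 fell 2.26-fold in OSK-A549-Colony, the only member past the test with a fold change over 2 (log2 difference -1.18, SE 0.20, adjusted p = 0.0333). In OSK-A549-SN it was 1.72-fold lower without passing the test (adjusted p = 0.166).

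ABCA1 read -3.07, -2.60 and -2.12 on the 3 parental A549 arrays, -2.20, -2.49 and -2.89 on the OSK-A549-Colony arrays and -2.07, -2.15 and -2.25 on the OSK-A549-SN arrays. ABCA1, the pump that loads cholesterol onto apolipoproteins, overlapped between all groups. The log2 difference was 0.07 in OSK-A549-Colony (95% confidence interval -0.67 to 0.80) and 0.44 in OSK-A549-SN, and its sign in OSK-A549-Colony turned, to -0.0099 with normexp background correction, -0.17 when parental A549 replicate 1 was left out and -0.095 when OSK-A549-Colony replicate 1 was. MYLIP, a ubiquitin ligase that lowers lipoprotein uptake, had -0.46 and -0.37, neither past the test. The 250 bases before the start of ABCA1, chr9:104928156-104928405 on the minus strand, are shown, by a choice made after its values were seen, as it was the 1 member of 29 with a direct repeat of the liver X receptor type, found in 0.3% of genes and 0.239% of promoters. The pattern searched was GGTNA, 5 bases and GGTCA, and the capitals mark it on the opposite strand, together with CACCCCAC and the E-box CACGTG further from the start.
ABCA1: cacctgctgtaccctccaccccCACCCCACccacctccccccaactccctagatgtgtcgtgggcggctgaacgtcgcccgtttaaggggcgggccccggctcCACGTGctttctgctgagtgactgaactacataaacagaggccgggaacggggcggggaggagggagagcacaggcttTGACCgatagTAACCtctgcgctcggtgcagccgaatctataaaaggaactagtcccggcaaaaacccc

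**Figure D3:**
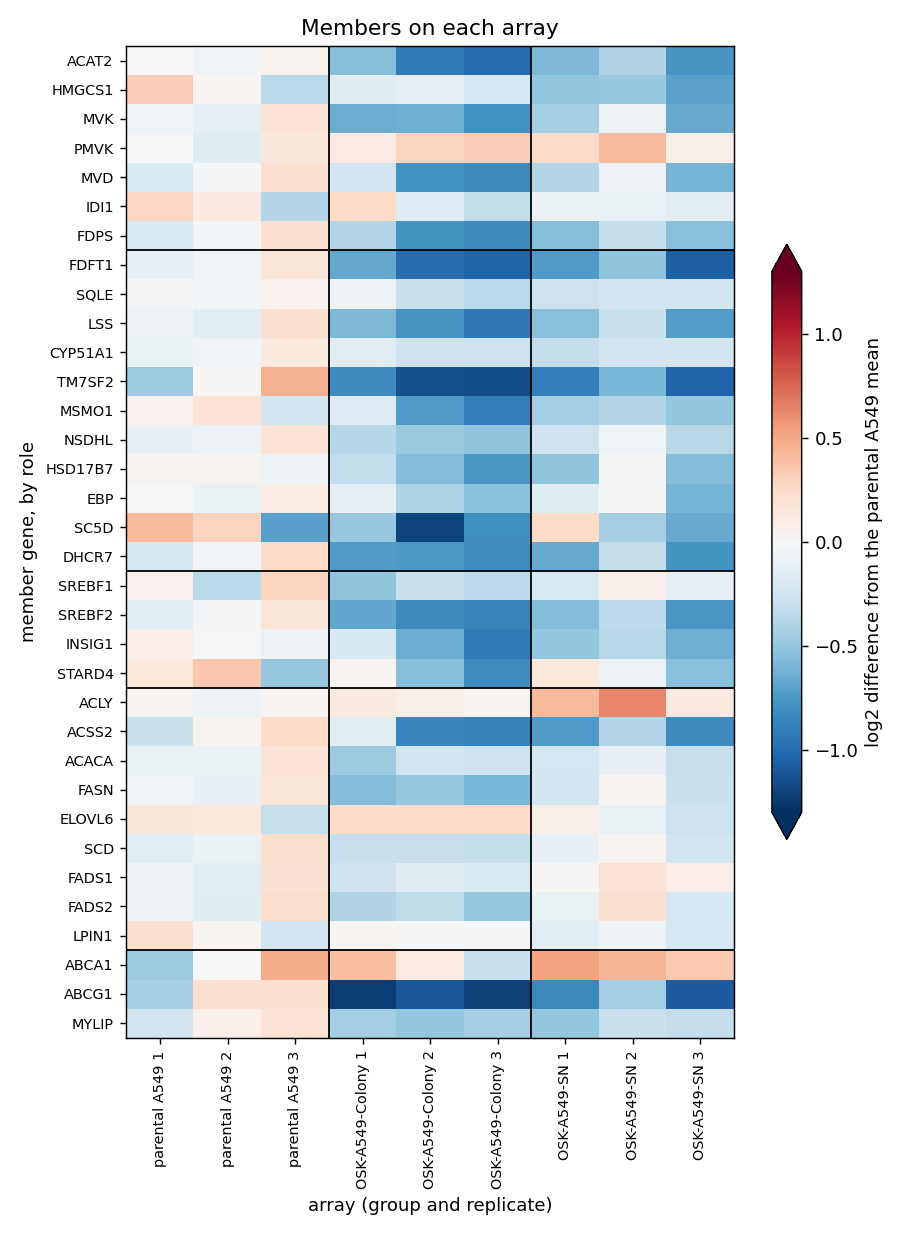
Log2 difference of each member (rows, by role) from its parental A549 mean on each of the 9 arrays (columns, by group and replicate), blue below and red above. Most cells of the transduced arrays are blue, while PMVK and ACLY are above 0 on all 6 of them.

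The arrays of a group were not alike in the sterol genes. The median of the 7 mevalonate enzymes, as a difference from the parental mean, was -0.24, -0.63 and -0.79 on OSK-A549-Colony replicates 1, 2 and 3 and -0.43, -0.09 and -0.61 on OSK-A549-SN replicates 1, 2 and 3. For the 11 enzymes from squalene to cholesterol the medians were -0.37, -0.73 and -0.80 and -0.45, -0.29 and -0.60. In both lists OSK-A549-Colony replicate 1 and OSK-A549-SN replicate 2 were nearest to parental A549 in their group. By the scanner barcodes, OSK-A549-Colony replicate 1 and the parental arrays lie in column 1 of slide 1, and OSK-A549-Colony replicates 2 and 3 in column 2. OSK-A549-SN replicates 1 and 2 lie in column 2 of slide 1, and replicate 3 in column 1 of slide 2. The part of array position in these values was not tested. The 9 fatty acid and lipid genes differed less between arrays, with -0.27, -0.26 and -0.28 in OSK-A549-Colony and -0.11, 0.02 and -0.24 in OSK-A549-SN. Over the 23762 probes detected on all 9 arrays the medians ran only from -0.05 to 0.09.

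Replicates of parental A549 differed most in these genes, with a median SD over the members of 0.20. It was 0.18 for OSK-A549-SN and 0.12 for OSK-A549-Colony, and over the probes detected on all 9 arrays the values were 0.21, 0.16 and 0.091 in the same order of groups.

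**Figure D4:**
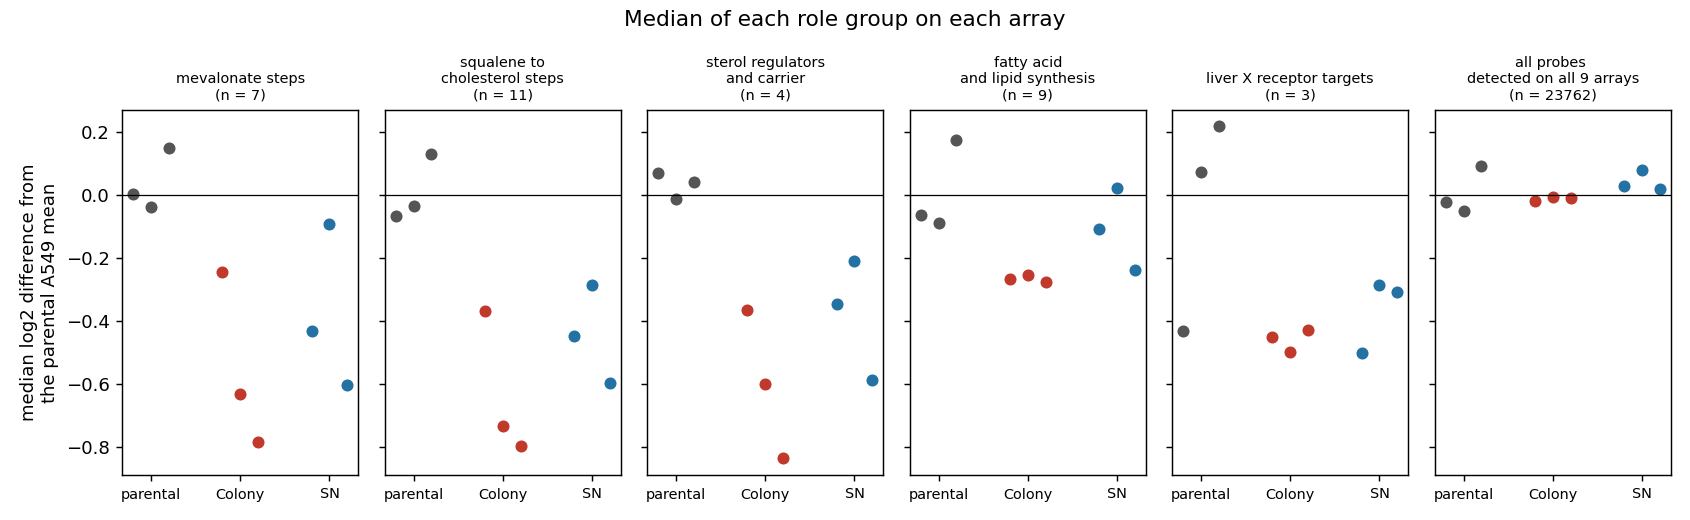
Median log2 difference from the parental A549 mean on each array (vertical axis) for the 5 role groups and for all probes detected on all 9 arrays, with points for replicates 1, 2 and 3 in order. In the mevalonate enzymes OSK-A549-Colony replicate 1 is at -0.24 and the other 2 at -0.63 and -0.79, while the medians of all probes stay between -0.05 and 0.09.

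In OSK-A549-SN against parental A549, the comparison of the spindle cells with the line, limma called 0 of the 34 members, against 1.82% of 32223 probes, a share that was at most 0.618% with any 1 array left out. This comparison shares the parental arrays with the first. At an unadjusted p under 0.05, 12 members were lower and 0 higher, against 10.4% and 11.2% of all probes. That count rests on single arrays: leaving out parental A549 replicate 2 gave 5 lower, leaving out OSK-A549-SN replicate 1 gave 4, and leaving out OSK-A549-SN replicate 3 gave 4 lower and 1 higher, beside 7.66%, 7.28% and 8.62% of all probes lower. In both directions together these are 14.7%, 11.8% and 14.7% of the members, against 15%, 15.2% and 19.6% of all probes. Leaving out parental A549 replicate 3 gave 8 lower and 1 higher, against 10.4% and 13.3% of all probes. The value was below 0 for 30 of 34 members against 42.7% of all probes, and the median was -0.27 against 0.08. All OSK-A549-SN arrays lay below all parental arrays in 16 members and above in 1, where the shares of all probes were 15.2% and 16.8%. The count above became 4 when parental A549 replicate 3 was left out, and 2 when OSK-A549-SN replicate 3 was, with 29.6% and 24.6% of all probes above in those fits. Other settings called from 0 to 3 members, and the 3, ACAT2, FDFT1 and INSIG1, came with normexp background correction, where the calls over all probes rose as well, from 586 to 1594.

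OSK-A549-Colony was set against OSK-A549-SN to compare the cells of the colony with those around it. limma called 0 of the 34 members and 0% of 31748 probes, and the smallest adjusted p over all probes was 0.093. At an unadjusted p under 0.05, 2 members were higher in OSK-A549-Colony and 4 lower, against 8.8% and 10.7% of all probes. These 6 became 3 when OSK-A549-Colony replicate 2 or OSK-A549-SN replicate 2 was left out, 2 when OSK-A549-Colony replicate 3 was and 11 when OSK-A549-SN replicate 3 was, beside 12.7%, 14.3%, 11.8% and 23.2% of all probes. The value was below 0 for 27 of 34 members, 79.4% of them, against 58.1% of all probes. OSK-A549-Colony lay above OSK-A549-SN on all arrays in 3 members and below in 8, against 13.5% and 17.3% of all probes. With fewer arrays more probes do not overlap: without OSK-A549-Colony replicate 1 the 8 became 22, 64.7% of the members against 23.2% of all probes, and without OSK-A549-SN replicate 3 they became 15, 44.1% against 29.2%. The median was -0.19, against -0.06 over all probes.

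By the values on each array given above, the 3 HMGCS1 levels of OSK-A549-Colony lay above those of OSK-A549-SN, with a log2 difference of 0.40 (95% confidence interval 0.16 to 0.63, adjusted p = 0.138). With eBayes run with a trend and robust, HMGCS1 was the 1 member past the test in this comparison, at an adjusted p of 0.042. As 2.94% of the members against 3.37% of all probes, that is no more than the background, and over the other settings the p ran up to 0.359. FASN had -0.38, FADS2 -0.37 and ABCG1 -0.39, each with OSK-A549-Colony below OSK-A549-SN on all arrays and none past the test. Leaving out 1 array gave from -0.45 to -0.28 for FASN, from -0.46 to -0.24 for FADS2 and from -0.54 to -0.22 for ABCG1. ELOVL6 had 0.35. In order of group means, 23 of the 34 members were lowest in OSK-A549-Colony and highest in parental A549, and 6, among them HMGCS1, SQLE and IDI1, were lowest in OSK-A549-SN and highest in parental A549. The shares of all probes with these orders are not given, so the counts are not set against a background.

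A list of 11 proliferation genes, among them MKI67, CCNB1 and AURKA, was chosen because earlier results of these data had them differ between these groups. A count between these groups thus restates the choice of these genes. In this comparison 9 of them lay lower in OSK-A549-Colony without overlap, against 17.3% of all probes, with a median log2 difference of -0.31. By limma 0 passed the test and 9 had an unadjusted p under 0.05, as did 19.5% of all probes. Their median difference from the parental mean was -0.03, 0.05 and 0.01 on the OSK-A549-Colony arrays and 0.34, 0.42 and 0.17 on the OSK-A549-SN arrays, and CCNB2, a mitotic cyclin, was the 1 past the test in OSK-A549-Colony against parental A549 (log2 difference -0.54, adjusted p = 0.0459), a call that ended when any 1 of the 6 arrays was left out (adjusted p from 0.0521 to 0.174). The list was split there: CCNB1, AURKB and PCNA also lay lower without overlap, while CCNE2 and RRM2 lay higher without overlap, 2.85-fold and 1.98-fold, and did not pass the test (adjusted p = 0.0655 and 0.0629). Of all probes 20.7% lay lower and 20.9% higher without overlap there. The part of these 11 genes in the values of the members was not tested.

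**Figure D5:**
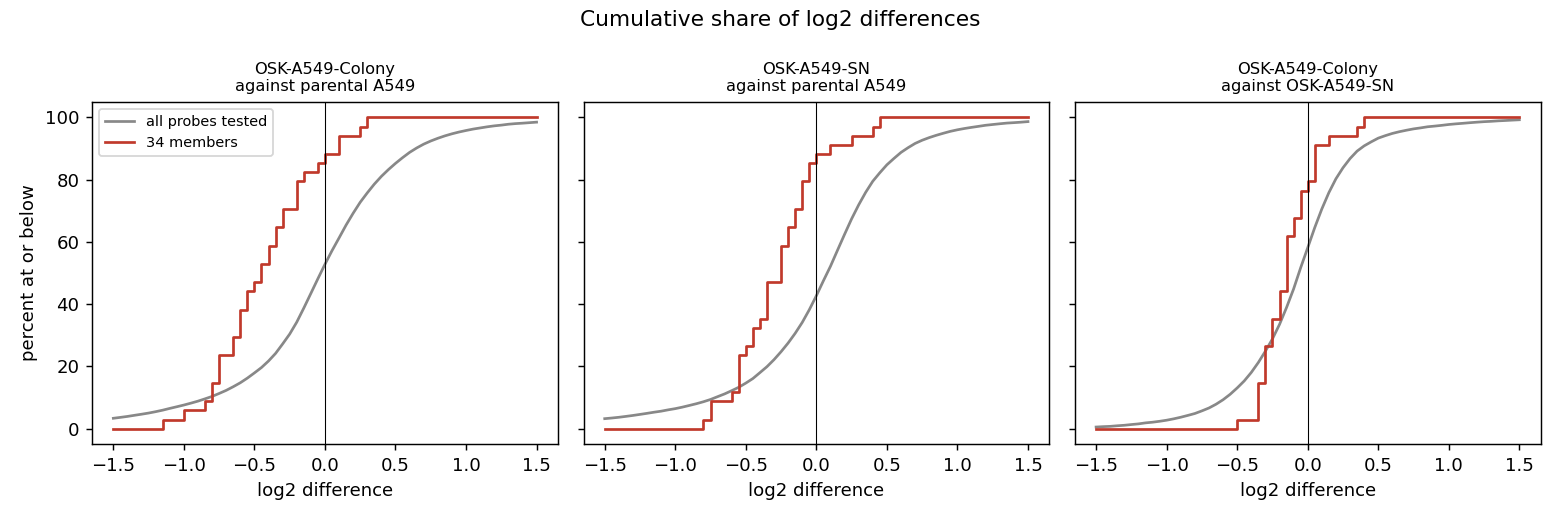
Cumulative percent (vertical axis) of log2 differences (horizontal axis) for the 34 members and for all probes tested, in each comparison. The members lie to the left of all probes around 0 in each comparison. Below 0 are 88.2% of them in both comparisons with parental A549, against 52.8% and 42.7% of all probes, and 79.4% between the transduced groups, against 58.1%.

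Further genes of the pathway were read from lists written with the members. Of 70 such genes 67 were detected on at least 1 array, and in the first comparison 3 rose and 6 fell, with a median of -0.04. Over all probes tested 1325 of 30869 rose and 1458 fell, 4.29% and 4.72%, so the rises among the 67 are near the background. All 9 calls ended when parental A549 replicate 2 or any 1 of the OSK-A549-Colony arrays was left out, with adjusted p of 0.0534 or more. They ended as well with a term for the replicate number in the fit, where 0 probes passed. Without parental A549 replicate 1 there were 3 rises and 8 falls in these lists, and without replicate 3 there were 6 and 8, beside 2451 and 4182 calls over all probes. The 8 genes that process or retain SREBP proteins had a median of 0.03, and 1 of them rose. That was ERLIN1, which helps to degrade sterol enzymes, with -1.09, -1.38 and -1.19 in parental A549 and -0.58, -0.52 and -0.57 in OSK-A549-Colony (1.58-fold higher, adjusted p = 0.0329). Of 14 cholesterol handling genes tested, 2 rose and 0 fell. NPC1, which lets cholesterol out of lysosomes, was 1.43-fold higher (adjusted p = 0.0474, and from 0.0512 to 0.155 with any 1 array left out), and VLDLR, a lipoprotein receptor, 1.79-fold higher (adjusted p = 0.0241).

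Of 23 further fatty acid synthesis genes, 3 fell and 0 rose. MLXIPL, a glucose-responsive activator of lipid genes, read 2.07, 2.13 and 2.35 in parental A549, 1.09, 1.25 and 1.16 in OSK-A549-Colony and 0.66, 1.00 and 0.58 in OSK-A549-SN. It fell 2.03-fold in OSK-A549-Colony (adjusted p = 0.0207) and 2.71-fold in OSK-A549-SN (adjusted p = 0.0320), the 1 gene of this list past the test there. With any 1 of the 6 arrays left out the OSK-A549-SN call ended (adjusted p from 0.0562 to 0.134), and without parental A549 replicate 2 or any 1 of the OSK-A549-Colony arrays the other did (from 0.0682 to 0.101). ACACB, the mitochondrial form of ACACA, fell 1.53-fold and LPIN3, a relative of LPIN1, 1.73-fold in OSK-A549-Colony.

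Of 13 genes listed under fatty acid oxidation, enzymes and regulators such as PPARA among them, 11 had values below 0 for OSK-A549-Colony and 10 for OSK-A549-SN. These are 84.6% and 76.9%, against 52.8% and 42.7% of all probes, and 2 of the genes fell in each group. PDK4, which spares glucose carbon when fats are burnt, fell 2.06-fold in OSK-A549-Colony (adjusted p = 0.0155) and 1.79-fold in OSK-A549-SN (adjusted p = 0.0444). PPARA, a receptor that switches oxidation on, fell 1.61-fold and 2.21-fold (adjusted p = 0.0325 and 0.0496). Both OSK-A549-SN calls ended when any 1 of the 6 arrays was left out, with adjusted p from 0.0654 to 0.175 for PDK4 and from 0.0783 to 0.173 for PPARA. Both OSK-A549-Colony calls ended without parental A549 replicate 2 or any 1 of the OSK-A549-Colony arrays, with 0.0564 to 0.101 and 0.0922 to 0.137. Of 9 further liver X receptor genes, 1 fell in OSK-A549-Colony. This was ABCG4, a relative of ABCG1, which was detected on all 3 parental arrays and on none of the OSK-A549-Colony arrays, so that it was at least 3.52-fold lower, taking for each dim array the higher of its value and the lowest level well above background there (adjusted p = 0.0153, and from 0.0534 to 0.0932 without parental A549 replicate 2 or any 1 of the OSK-A549-Colony arrays). Of the 70 genes, 0 passed the test in OSK-A549-Colony against OSK-A549-SN with limma, and 14 of the 67 tested had an unadjusted p under 0.05, as did 6181 of 31748 probes, which is near the same share. Over those lists 3 fell and 0 rose in OSK-A549-SN against parental A549, where 329 of 32223 probes fell and 257 rose. The 3 calls ended with any 1 array left out, while the calls over all probes went from 586 to 190 or fewer. A term for the replicate number ended these 3 calls as well, and 0 probes passed there.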

How the data were processed

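RNA of 3 arrays per group was hybridised to single-colour Agilent arrays. The authors deposited the intensity of each spot from Feature Extraction 11.5.1.1, background already subtracted, and a log2 table that the authors scaled per array and that differs from the values here by 1 constant an array, to within 0.001. From the intensity, log2 was taken, control and outlier spots were left out, spots of a probe were averaged and the array's 75th percentile was subtracted. The 75th percentile lay between 217.5 and 270.6 in intensity, and 25809 to 29317 of 50599 probes were detected per array. RefSeq accessions named 30275 of the 32065 probes that carried one (GRCh38.p14). Each comparison was fitted with limma 3.58.1 in R 4.3.3 on its 6 arrays, over the probes detected on any of those arrays. Fits were tested on simulated data. Only 3 arrays a group limit the precision, and the p-values measure the spread between these samples.

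The members and the gene lists were chosen with earlier results of these data known. Values on every array are given for up to 12 members past the test by smallest p, the 4 with the largest difference without overlap in each comparison, and SREBF1, SREBF2, INSIG1, SCD, FASN and ABCA1. Of other lists, genes past the test are named. Markers named without passing the test were chosen after their values were seen. The alternatives were normexp on median brightness (offset 50), quantile normalization, no and stricter filters on dim probes, 1 fit of all 9 arrays, replicate and slide terms, the deposited log2 table, gene means, eBayes with trend and robust, and leaving out each array.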

Additional observations from a re-analysis of the deposited data

How the results depend on the processing

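In OSK-A549-Colony against parental A549, the 8 members past the test became 13 with normexp background correction, 14 with eBayes run with trend and robust, and 0 with no filter on dim probes, where more probes are tested. The calls over all probes moved in the same sense, from 9.02% to 13.8%, 16.8% and 1.34%, so the rise is not particular to the members. The 1 member past the test and 2-fold became 0 with normexp and with no filter, and 2 with the stricter filter, with all 9 arrays in 1 fit, with gene means and with eBayes run with trend and robust. In the same order 1.08% and 1.15%, and then 5.57%, 5.12%, 3.59% and 4.74%, of all features tested were past it, in place of 3.7%. Leaving out 1 array gave from 0 to 9 members past the test, beside 0% to 13.8% of all probes, and from 0 to 2 also 2-fold, beside 0% to 4.49%. Medians ran from -0.52 to -0.42, and from 22 to 27 members lay lower without overlap and 1 to 2 higher. Of all probes 23.5% to 26.9% then lay lower and 22.8% to 30.7% higher, in place of 20.7% and 20.9%. The count without overlap higher was 3 with normexp and 2 with quantile normalization, in place of 1, and no share of all probes is given for these settings.

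In OSK-A549-SN against parental A549, the 0 members past the test became 3 with normexp, 1 with the stricter filter, and 2 with all 9 arrays in 1 fit and with eBayes run with trend and robust, while the calls over all probes went from 1.82% to 4.95%, 7.93%, 9.93% and 6.64%. Leaving out 1 array kept that count at 0, with 4 to 12 members at an unadjusted p under 0.05 by limma, against 14.8% to 23.7% of all probes. Medians ran from -0.35 to -0.24, and 16 to 22 members lay lower without overlap and 1 to 4 higher. Of all probes 17.1% to 19.7% then lay lower and 19.1% to 29.6% higher, in place of 15.2% and 16.8%. The count higher was 2 with normexp and with quantile normalization, for which no share of all probes is given. In OSK-A549-Colony against OSK-A549-SN, 1 member in place of 0 passed with eBayes run with trend and robust, beside 3.37% in place of 0% of all probes. With quantile normalization 5 in place of 8 lay lower without overlap, with no share of all probes given. Leaving out 1 array gave 0 past the test by limma, and 2 to 11 at an unadjusted p under 0.05 against 11.8% to 23.2% of all probes. It gave 8 to 22 lower without overlap, the 22 without OSK-A549-Colony replicate 1, where 23.2% of all probes did so. Medians ran from -0.28 to -0.12. The sign of ABCA1 in OSK-A549-Colony against parental A549 turned, to -0.0099 with normexp, -0.17 when parental A549 replicate 1 was left out and -0.095 when OSK-A549-Colony replicate 1 was, and leaving out 1 array gave from -0.17 to 0.31. Except where more probes were tested or fewer arrays used, the cause was not tested. Every median kept its sign. The 3 calls of the other lists in OSK-A549-SN ended with any 1 array left out, and the 9 in OSK-A549-Colony without parental A549 replicate 2 or any 1 of its own arrays. Of the values of single named members, leaving out 1 array kept 87 in direction and call, ended 36 calls, added 1 and turned 2, and the other settings kept 170, ended 16 calls, added 10 and turned 1.

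With the replicate block, 0 members passed the test in OSK-A549-Colony against parental A549, 0 were also 2-fold, and 15 had an unadjusted p under 0.05 by limma, against 23.6% of all probes. Over all probes the calls with the block were 0 as well, and it changed no other count of members past the test. The calls of the other lists and of the markers in the comparisons with parental A549 ended with it too. In OSK-A549-Colony against OSK-A549-SN, where the titles give same-numbered arrays the same P number, limma with the block gave 0 past the test and 7 members at an unadjusted p under 0.05 in place of 6, against 17.2% of all probes. The numbers were not taken as pairs, as no label says that a number marks a shared culture. Deviations of same-numbered OSK-A549-Colony and OSK-A549-SN arrays correlated at 0.24, 0.073 and 0.14 across probes, and each array correlated best with its own number. The fit without the block may therefore ignore a pairing of these groups. For same-numbered OSK-A549-Colony and parental arrays the correlations were -0.007, -0.053 and -0.016. As OSK-A549-SN replicate 3 was the single array on slide 2, a slide term leaves its value out of the difference, and it could not be fitted for OSK-A549-Colony against parental A549, which lies on 1 slide. All members were detected on the 9 arrays. Yet over settings other than leaving out 1 array, the log2 difference of ABCG1 in OSK-A549-Colony against parental A549 ran from -1.18 to -0.77.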
